A study of Mus musculus with 4 samples.

Results

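The untreated YFP-positive library and the VEGF-C-treated YFP-negative library were set against each other, the 2 of 4 RNA sequencing libraries of the study with the fewest genes above 0 and with similar depth. The members were all genes with at least 1 FPKM (fragments scaled by transcript length and by library) in either library, which gave 9164 genes of 23334. Cells were taken by fluorescence-activated sorting from C57BL/6 mice that carry a Vegfr3::YFP reporter, in which a yellow fluorescent protein follows the gene Flt4, also called Vegfr3. Per the labels, YFP-positive cells are neural stem cells and YFP-negative cells are neurons, both from the subgranular zone of the hippocampus; the age of the mice is not given in the labels used here. All cells were held in culture for 18 h, those of the treated library with 50 ng/ml VEGF-C. Sorted cells of 2 groups of 16 mice were pooled for each condition, so each group has 1 library. Differences therefore have no check by replicates and carry no p-value. Population and VEGF-C change together in the pair, so their parts in any difference cannot be told apart.

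VEGFR3 is a receptor tyrosine kinase that binds VEGF-C, a growth factor best known for its role in lymphatic vessels, and it signals through the ERK and AKT kinases. Stem cells of the subgranular zone divide rarely, share many genes with astrocytes, depend on Notch and BMP signals to stay quiescent, and give rise to progenitors and then granule neurons. A sort that takes all cells without the reporter can hold neurons, oligodendrocytes, microglia and vessel cells. In bulk RNA, fewer cells of a type and less RNA per cell cannot be told apart.

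The pair was chosen for few genes above 0 and similar depth, so its gene and fragment numbers restate that choice. The 2 libraries of the pair held 8561946 (YFP-positive) and 8390506 (YFP-negative) implied fragments, against 16275372 and 60326299 in the others. Implied fragments are the fragment numbers worked back from the normalized counts. They listed 9669 and 9556 genes above 0, against 13132 and 13528. Among genes with at least 1 FPKM, the median was 24.5 and 25.4 FPKM in the pair, against 10.2 and 10.3 FPKM in the others. The 2 richer libraries, YFP-positive cells with VEGF-C and YFP-negative cells without it, share no library with the pair and are called the gene-rich pair. The gene-rich pair makes the same population contrast with VEGF-C on the opposite side.

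The reporter's own gene, Flt4, was below 1 FPKM in both libraries of the pair and so was not among its tested genes. Its values there ran against the sort, and those in the gene-rich pair ran with it. Flt4 was listed at 0 in YFP-positive cells, and if that 0 is a count it allows up to 0.0747 FPKM (3 fragments). In the treated YFP-negative library Flt4 stood at 0.348 FPKM from 15 fragments, with a 95% exact Poisson interval of 0.195 to 0.574 FPKM that covers counting error only. In the gene-rich pair Flt4 stood at 2.01 FPKM from 860 fragments in the YFP-positive and 0.0584 FPKM from 7 fragments in the YFP-negative library. The cell type labels were checked against markers. Of 20 genes of mature neurons, 11 reached 1 FPKM in either library. The FPKM values of all 20 summed to 174 in the YFP-positive and 131 in the YFP-negative library. Npy alone gave 119 FPKM of the YFP-positive sum and was listed at 0 in the YFP-negative library. The defining neuronal genes Rbfox3 and Slc17a7 stood at 0.231 FPKM and at a listed 0 in the library labelled as neurons. Some other neuronal genes were higher there than in the YFP-positive library: Eno2 at 41.0 against 0.0572 FPKM, Snap25 at 39.9 against 6.28 FPKM and Syn1 at 22.6 against 0.0469 FPKM. Others were lower there: Map2 at 1.95 against 7.76 FPKM, Camk2b at 0.0346 against 2.60 FPKM and Camk2a at a listed 0 against 3.86 FPKM. Of the 11 tested members, 5 were at least 2-fold higher in the YFP-positive library and 4 lower. In the library labelled as neurons 16 oligodendrocyte genes summed to 14257 FPKM, far above the neuronal sum, and the library is called by its sort. In the YFP-positive library 18 astrocyte genes summed to 4881 FPKM and 20 neural stem cell genes to 3508 FPKM, while Prom1 was listed at 0.

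Most genes differed by 2-fold or more in the pair. On the scale log2((FPKM + 1) / (FPKM + 1)), which understates differences of low genes, 3640 genes (39.7%) were at least 2-fold higher in the untreated YFP-positive library. Another 3445 genes (37.6%) were at least 2-fold lower there, that is, higher in the treated YFP-negative library, and 2079 lay within 2-fold; 77.3% were past it in either direction. The median log2 ratio was 0.08, with quartiles of -2.27 and 2.26, so the spread was wide and centred near 0. In the gene-rich pair, 3264 of 12194 genes (26.8%) were at least 2-fold higher in the YFP-positive sort and 3141 (25.8%) were lower, 52.5% in all, with a narrower spread (quartiles -1.04 and 1.08). Many differences had 1 library below 1 FPKM. A tested gene listed at 0 in 1 library is past 2-fold by the rule itself, since its other value is at least 1 FPKM. Of the higher genes, 2176 were below 1 FPKM in the YFP-negative library and 1060 were listed at 0 there. Of the lower genes, 2127 were below 1 FPKM in the YFP-positive library and 979 were listed at 0. At least 1 FPKM in both libraries was reached by 4732 genes.

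**Figure D1:**
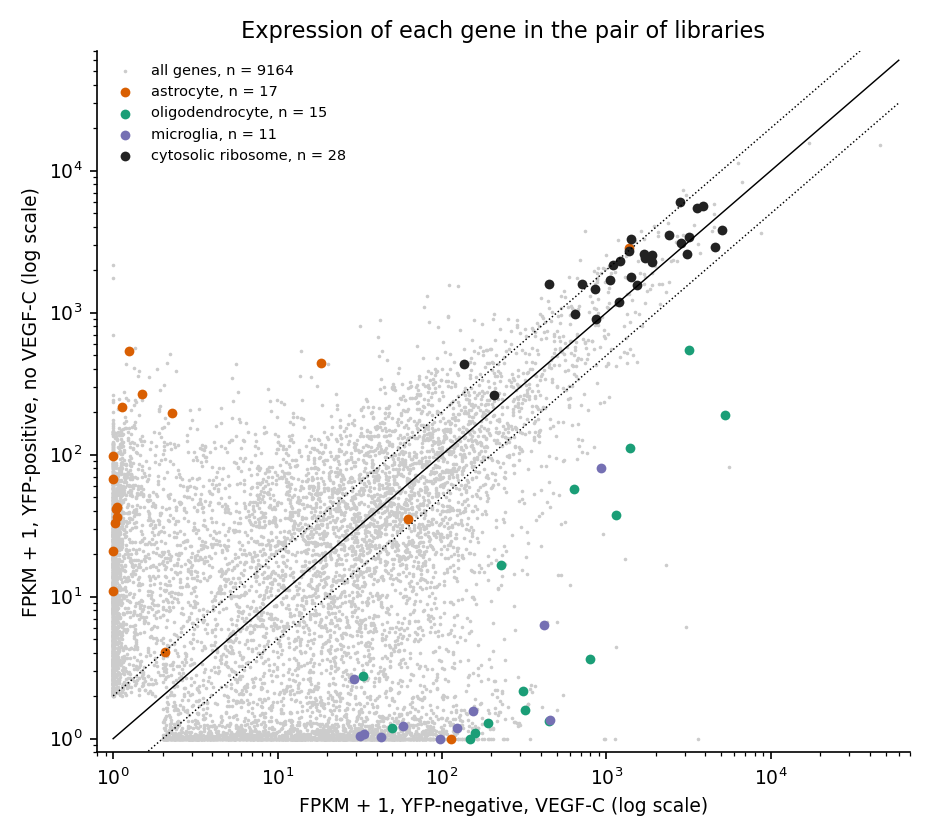
Each point is 1 of the 9164 genes, placed by FPKM + 1 in the treated YFP-negative library (horizontal, log scale) and in the untreated YFP-positive library (vertical, log scale); dotted lines mark 2-fold and coloured points are 4 gene lists. Ribosomal genes lie along the diagonal at the top, oligodendrocyte and microglia genes lie below it, most astrocyte genes lie above it, and bands along both axes hold the genes found in 1 library.

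The share of genes past 2-fold depended on level. Below a mean of 5 FPKM, 84.8% of 2104 genes were past 2-fold. Of the 2104 genes, 43.8% were listed at 0 in 1 library, which puts them past 2-fold by the rule. Between 100 and 500 FPKM, 53.7% of 927 genes were past it, and at 500 FPKM or more 35.4% of 263. The gene-rich pair showed lower shares at every level, 69.2% below 5 FPKM and 18.8% at 500 FPKM or more. Transcript length went with small shifts: 37.2% of the shortest and 42.1% of the longest of 3 equal classes of genes were higher in the YFP-positive library. By chromosome, the percentage higher lay between 36.2 on chromosome 19 and 45.5 on chromosome X, leaving aside the 3 genes of chromosome Y.

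**Figure D2:**
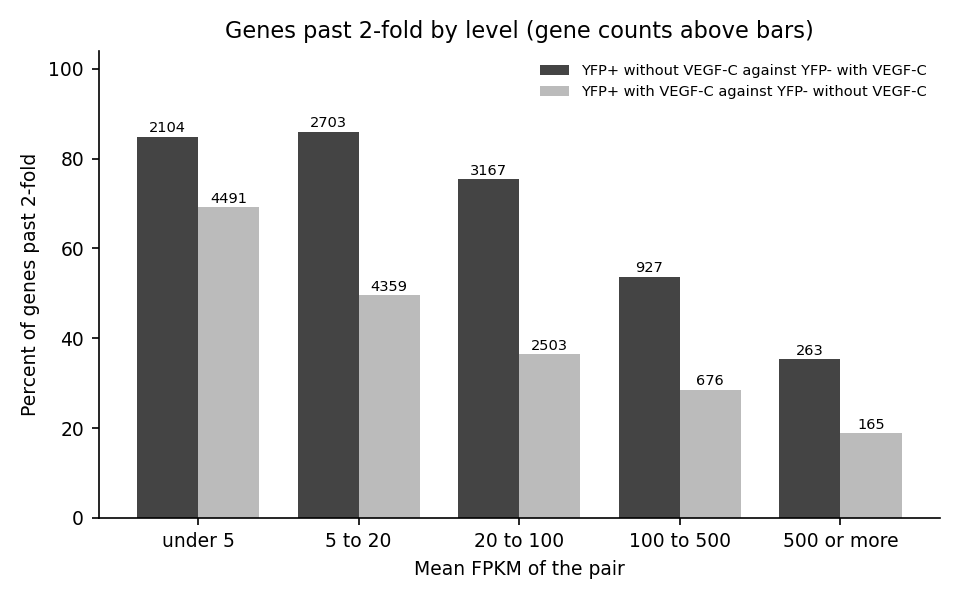
Bars give the percentage of genes at least 2-fold apart (vertical) in 5 classes of the pair's mean FPKM (horizontal), for the pair described here (dark) and for the gene-rich pair (light), with gene counts above. The dark bar is the taller one in each class, from 84.8% against 69.2% at the lowest level to 35.4% against 18.8% at the highest.

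The widest ratios among genes above 0 in both libraries and with a mean of at least 20 FPKM are given by the 10 genes on each side. Aldoc, the brain aldolase of astrocytes (chromosome 11 from 78322968 to 78327781, mm10, plus strand), stood at 536 FPKM in the YFP-positive and 0.256 FPKM in the YFP-negative library, a log2 ratio of 8.74. Id1 followed with 566 and 0.350 FPKM (log2 ratio 8.71) and Id3 with 407 and 0.332 FPKM (8.26); both encode inhibitors of helix-loop-helix factors and are classic BMP targets. Inhba, a subunit of activin, stood at 438 and 0.192 FPKM (8.52). The other higher genes of the 10 were Osgin1, Nop16, Gsta4, Cnn3, Adk and Hist1h4d, with ratios of 7.76 to 8.08. Hist1h4d is uncertain because the copies of histone H4 are nearly identical. The low sides of these ratios rest on few fragments, 3 for Aldoc and 2 for Id1, Id3 and Inhba.

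On the other side, the chemokine gene Ccl4 (chromosome 11 from 83662584 to 83664683, plus strand) stood at 5.09 FPKM in the YFP-positive and 3048 FPKM in the YFP-negative library, a log2 ratio of -8.97. Pllp, a myelin membrane protein, was at 0.327 and 447 FPKM (-8.40). Tyrobp, the signalling adaptor of microglial receptors, was at 0.349 and 451 FPKM (-8.39), and the chemokine gene Ccl5 at 3.43 and 1137 FPKM (-8.00). The others of the 10 were Vps28, Sh3bgrl3, Tmem109, Rab9, Atp6v1f, a subunit of the vacuolar proton pump, and Ndufb5, a subunit of respiratory complex I. Vps28, which sorts proteins at endosomes, was at 0.585 and 500.3 FPKM here and at 94.6 and 151 FPKM in the YFP-positive and YFP-negative libraries of the gene-rich pair. Thus 4 of the 10 lower genes, Vps28, Ndufb5, Rab9 and Atp6v1f, and 2 of the 10 higher genes, Nop16 and Hist1h4d, lay within 2-fold in the gene-rich pair. Over all genes of the gene-rich pair, 52.5% were past 2-fold.

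Gene lists for cell types, signals and cell functions describe the rest, 39 lists with 446 distinct members among the tested genes. Of these lists, 15 had a median log2 ratio of at least 1 and 10 of at most -1, while the median over all genes was 0.08. Below, 2 FPKM values of a gene are given with the YFP-positive library first. Counts of higher and lower members are to be read beside the shares over all genes, 39.7% higher and 37.6% lower.

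**Figure D3:**
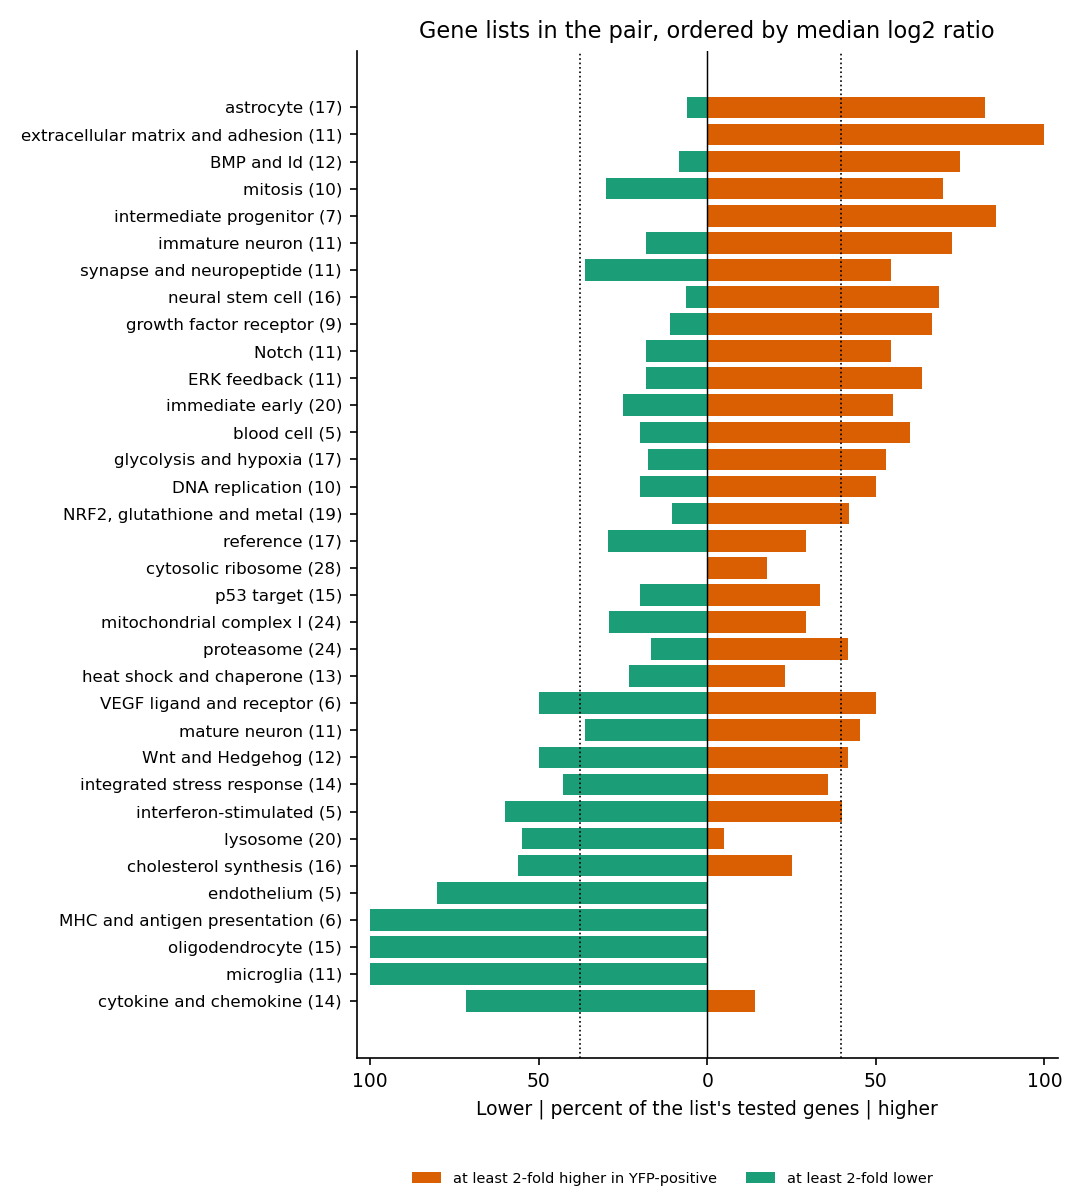
Bars give, for each gene list with at least 5 tested members (number in brackets), the percentage of members at least 2-fold higher (right) and lower (left) in the untreated YFP-positive library, ordered by the list's median; dotted lines mark 39.7% and 37.6%, the shares over all genes. Astrocyte and extracellular matrix genes stand at the top, and microglia and cytokine genes at the bottom.

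The astrocyte list was among the most one-sided. Of 17 tested members, 14 were at least 2-fold higher in YFP-positive cells and 1 was lower, with a median log2 ratio of 5.12; in the gene-rich pair 17 of 18 were higher and 0 lower. The gap junction gene Gja1 stood at 268 FPKM against 0.492 FPKM, and the glutamate transporter Slc1a3 at 214 against 0.130 FPKM. The chaperone Clu was at 441 and 17.5 FPKM, and the protease inhibitor Cst3, the most abundant of the list, at 2847 and 1363 FPKM. Cldn10, a claudin of tight junctions, was the exception, listed at 0 in the YFP-positive library and at 112 FPKM in the YFP-negative one. S100b, which oligodendrocytes also express, lay within 2-fold at 34.2 and 61.0 FPKM.

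Of 16 tested genes that mark radial stem cells, 11 were higher and 1 was lower, with a median of 1.91. Sox9, a transcription factor that stem cells and astrocytes share, stood at 445 and 1.12 FPKM. Vim, an intermediate filament gene, stood at 2333 and 691 FPKM, and Thrsp, a regulator of fatty acid synthesis in quiescent stem cells, at 150 and 0.150 FPKM. The core factor Sox2 lay just within 2-fold, at 114 and 58.0 FPKM, and so did Nes, which encodes nestin, at 39.0 and 78.0 FPKM. Lpar1, a receptor of lysophosphatidic acid, was lower, at 2.43 and 58.4 FPKM. In these 2 libraries the stem cell list was therefore not uniform, and several of its abundant members were in both.

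Progenitor genes leaned the same way, with 6 of 7 tested higher and 0 lower (median 2.42). Ccnd2, the D-type cyclin of neural progenitors, stood at 207 and 0.0705 FPKM. Sox11 was at 89.3 and 5.13 FPKM, and Eomes, which marks intermediate progenitors, at 4.53 and 0.0376 FPKM. Of 11 genes of immature neurons, 8 were higher and 2 lower (median 2.21). The tubulin gene Tubb3 was at 166 and 0.168 FPKM, and Neurod1, a factor of granule neuron differentiation, at 135 and 9.03 FPKM. Dcx, the usual marker of immature neurons, lay within 2-fold at 28.9 and 20.9 FPKM. Elavl3 was lower at 4.33 and 31.1 FPKM, and Stmn1 at 178 and 382 FPKM. Markers of this cell type were thus present in the library labelled as stem cells, and their part in its other differences was not tested.

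Genes of mature neurons and synapses split. Of 11 tested genes of mature neurons, 5 were higher and 4 lower (median -0.47), near the shares over all genes (39.7% and 37.6%). Npy, a neuropeptide, reached 119 FPKM in YFP-positive cells and was listed at 0 in the other library. The synaptic vesicle gene Syn1 was at 0.0469 and 22.6 FPKM, and the neuronal enolase Eno2 at 0.0572 and 41.0 FPKM. Of 11 tested synaptic and neuropeptide genes, which share members with the neuron list, 6 were higher and 4 lower (median 2.13). That median was 0.31 without a filter and 0.20 with genes above 0 in both libraries, and it was -0.08 in the gene-rich pair. Vamp2, a vesicle fusion protein, stood at 246 and 55.4 FPKM, and Scg3, a granin of secretory granules, at 58.6 and 1.81 FPKM. Snap25, also of the fusion machinery, went the other way at 6.28 and 39.9 FPKM.

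Myelin genes were uniformly lower in the YFP-positive library. All 15 tested oligodendrocyte genes were at least 2-fold lower, with a median log2 ratio of -5.38, and all 16 were in the gene-rich pair. Mbp, the myelin basic protein, stood at 111 and 1386 FPKM, and Mog, on the outer surface of myelin, at 0.0914 and 157 FPKM. Genes of oligodendrocyte precursors had no common direction, with 2 of 4 tested higher and 1 lower. Their factor Olig1 was at 0.211 and 117 FPKM, while its neighbour and relative Olig2 was at 56.8 and 14.6 FPKM. Sox10, which acts across the lineage, was abundant in both at 249 and 429 FPKM. Sox10 and Mbp were both above 100 FPKM in the library labelled as stem cells, and the part of oligodendrocyte RNA in its other values was not tested.

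**Figure D4:**
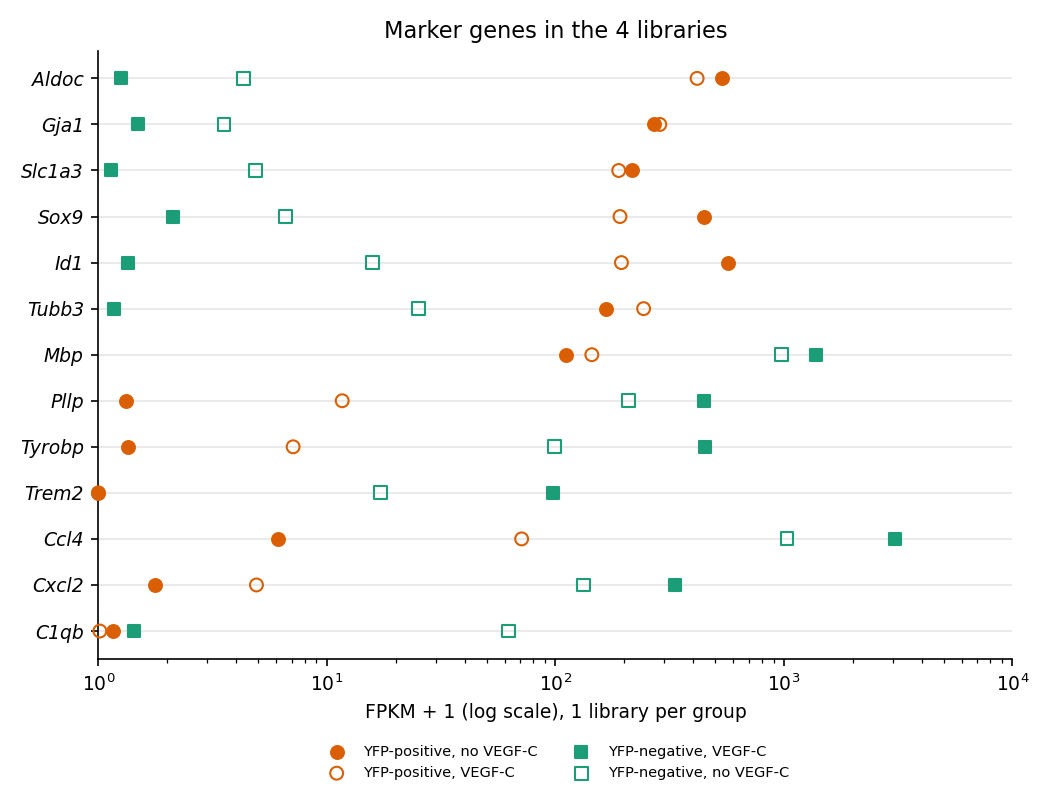
Points give FPKM + 1 (horizontal, log scale) of 13 genes in all 4 libraries, with circles for YFP-positive and squares for YFP-negative cells and filled marks for the pair described here. Filled circles and squares lie farther apart than open ones for Aldoc, Sox9, Id1 and Tyrobp, and C1qb is high in the open square (61.2 FPKM) while the filled square is at 0.437 FPKM.

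Microglia, the resident macrophages of the brain, showed the same direction, and some of their most typical genes were below 1 FPKM in both libraries. All 11 tested microglia genes were lower in the YFP-positive library, with a median of -5.55, and all 14 were in the gene-rich pair. Fcer1g, an adaptor of Fc receptors, was at 79.6 and 930 FPKM, Cd68, a lysosomal protein of phagocytes, at 5.34 and 415 FPKM, and Trem2, a lipid receptor, at a listed 0 and 96.3 FPKM. The complement genes C1qa and C1qc were listed at 0 in both libraries, and C1qb reached 0.157 and 0.437 FPKM. In the untreated YFP-negative library the same C1q genes stood at 14.5 (C1qa), 61.2 (C1qb) and 19.8 FPKM (C1qc). P2ry12 and Tmem119 were listed at 0 in all 4 libraries.

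Inflammatory genes accompanied the microglial ones. Of 14 tested cytokine and chemokine genes, 10 were lower in the YFP-positive library and 2 higher, with a median of -6.10, the lowest of the lists with at least 5 members. The cytokine Il1b stood at 0.121 and 94.6 FPKM, Il6 at a listed 0 and 71.6 FPKM, Tnf at a listed 0 and 63.5 FPKM, and the alarmin Il33 at 1.13 and 352 FPKM. Cd14, a receptor for bacterial lipopolysaccharide, was at 115 and 681 FPKM. The exceptions were Cxcl10, a chemokine of the interferon response, at 66.1 and 2.24 FPKM, and Nfkbia, the NF-kB inhibitor IkB alpha, at 277 and 81.5 FPKM. Ccl3 lay within 2-fold, at 280.3 and 381 FPKM, although the related Ccl4 had the widest ratio of the pair.

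Genes of this group are textbook targets of NF-kB, so their promoters are shown for members with ratios on both sides. The motif GGGANNTTCC (reverse complement GGAANNTCCC) was searched on both strands from 250 bases before to 50 bases after each gene's start. It was found in 482 of 32851 mouse promoters (1.47%) and in 4 of 6 matched genes of the 8 looked for. The stretches below, on GRCm38.p6 and from RefSeq, read 5′ to 3′ on the strand of the gene, with the match in capitals. Cxcl1 is at chr5:90891144-90891214 (plus strand), Cxcl2 at chr5:90903772-90903842 (plus strand), Cxcl10 at chr5:92349009-92349078 (minus strand) and Nfkbia at chr12:55492637-55492706 (minus strand).
Cxcl1: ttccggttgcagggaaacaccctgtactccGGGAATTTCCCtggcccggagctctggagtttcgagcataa
Cxcl2: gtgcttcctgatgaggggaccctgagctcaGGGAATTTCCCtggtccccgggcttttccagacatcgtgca
Cxcl10: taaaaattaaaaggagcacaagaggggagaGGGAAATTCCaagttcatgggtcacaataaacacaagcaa
Nfkbia: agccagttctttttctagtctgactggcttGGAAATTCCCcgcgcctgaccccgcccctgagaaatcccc
In Cxcl1 and Cxcl2 the capitals hold 2 overlapping matches, 1 per strand, that begin 71 and 97 bases before the start. The match began 159 bases before the start in Cxcl10 and 29 in Nfkbia. Cxcl1 was at 0.179 and 85.3 FPKM, and Cxcl2 at 0.766 and 332 FPKM. These 2 chemokine genes and Cxcl10 and Nfkbia thus carried the motif and had opposite directions in the pair described here. In the gene-rich pair Cxcl1 and Cxcl2 were also lower in YFP-positive cells (log2 ratios -2.87 and -4.75). Cxcl10 and Nfkbia lay within 2-fold there (log2 ratios -0.31 and -0.45). A match is a run of letters and says nothing on binding.

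Genes of antigen presentation were lower throughout. All 6 tested members were lower in the YFP-positive library (median -3.98), among them B2m, the light chain of class I molecules, at 256 and 1037 FPKM, and Cd74, the class II invariant chain, at 0.665 and 251 FPKM. The interferon-stimulated list split, with 2 of 5 higher and 3 lower and a median of -1.26 that turned to 1.81 with members of at least 5 FPKM and to 2.16 with those at a mean of at least 20 FPKM. Irf9, a transcription factor of the interferon response, stood at 46.8 FPKM and a listed 0, and the ubiquitin-like Isg15 at 28.5 FPKM and a listed 0. The antiviral gene Rsad2 went the other way at 0.0780 and 26.1 FPKM.

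Markers of vessels and blood rested on few genes. Of 5 tested endothelial genes, 4 were lower and 0 higher (median -3.57), led by Itm2a, listed at 0 against 65.4 FPKM, and Kdr, listed at 0 against 23.1 FPKM. The defining endothelial genes Cldn5 and Pecam1 reached 0.113 and 0.366 FPKM in YFP-positive cells and were listed at 0 in the other library. Cdh5 and Tie1 were listed at 0 in both. The 2 tested fibroblast genes were lower, Ptgds at 81.4 and 5574 FPKM and Apod at 94.2 and 495 FPKM, and oligodendrocytes also express both. Ttr, the only tested gene of ependyma and choroid plexus, was at 1.07 and 200 FPKM. The 2 tested mural genes had opposite directions: Vtn was at 22.8 and 0.0831 FPKM and Tagln at a listed 0 and 1.38 FPKM. Of 5 blood genes 3 were higher and 1 was lower, and the median of 1.38 became -1.42 when only the 2 members above 0 in both libraries were kept. Hba-a1, an alpha globin with a near-identical copy, was at 126 and 710 FPKM, and Cd79b, of the B cell receptor, at 145 FPKM and a listed 0.

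The ligands and receptors of the VEGF family had no common direction, with 3 of 6 tested higher and 3 lower. Among ligands, Vegfa, the main vascular factor, stood at 75.9 FPKM in the YFP-positive library from 1338 fragments (95% exact Poisson interval 71.9 to 80.0 FPKM). In the YFP-negative library Vegfa was at 7.82 FPKM from 147 fragments (6.60 to 9.19 FPKM). Vegfb was at 6.23 FPKM (4.55 to 8.34) against 21.4 FPKM (18.3 to 24.9). Figf, which encodes VEGF-D, was at 1.15 FPKM (0.631 to 1.94) and a listed 0. Of the genes tested in both pairs, Vegfb was lower here and higher in the gene-rich pair. Vegfc itself was listed at 0 in both libraries, also in the one treated with the protein.

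Among receptors, Kdr, which encodes VEGFR2, was at a listed 0 in YFP-positive and 23.1 FPKM in treated YFP-negative cells (21.6 to 24.6 FPKM, 927 fragments). The coreceptor gene Nrp1 had the opposite pattern, 17.4 FPKM (16.1 to 18.7) and a listed 0. Nrp2, the coreceptor known for VEGF-C, was at 0.187 FPKM from 8 fragments and 1.87 FPKM from 66 fragments, and its intervals did not overlap. Flt1 and Pgf were listed at 0 in both libraries. The intervals of Kdr, Nrp1 and Nrp2 are apart, yet they cover counting error and not the spread between cultures.

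Receptors of other growth factors were mostly higher in the YFP-positive library, with 6 of 9 tested higher, 1 lower and a median of 1.79. Fgfr1, a receptor for fibroblast growth factors, was at 126 and 17.0 FPKM. Ntrk3, the receptor of neurotrophin 3, was at 72.8 FPKM and a listed 0, and Fgfr2 lay within 2-fold at 23.6 and 22.5 FPKM. The lower one was Csf1r, on which microglia depend, at 0.0381 and 30.8 FPKM. Feedback genes of the ERK pathway, which growth factor receptors switch on, had 7 of 11 higher and 2 lower (median 1.52). The inhibitor Spry2 stood at 1534 and 124 FPKM, and in the gene-rich pair at 782 and 70.3 FPKM. Dusp6, an ERK phosphatase, was at 23.4 and 0.300 FPKM, while the related Dusp4 was at a listed 0 and 68.8 FPKM. The 7 higher genes were higher here in the library without VEGF-C. All 7 were also at least 2-fold higher in YFP-positive cells in the gene-rich pair, where those cells had VEGF-C.

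Immediate early genes, which cells switch on within minutes of a stimulus, were present in both libraries, and all 20 were tested. Of these, 11 were higher and 5 lower in the YFP-positive library, with a median of 1.44 against 0.63 in the gene-rich pair. Fos was at 301 and 81.5 FPKM, Jun at 288 and 41.0 FPKM and Myc at 475 and 91.8 FPKM. Egr1 lay within 2-fold at 194 and 232 FPKM. Btg2, an antiproliferative gene, was at 0.580 and 189 FPKM, and Egr2 at 0.353 and 105 FPKM. Klf2 reached 39.4 FPKM in YFP-positive cells, was listed at 0 in the other library, and was at most 0.209 FPKM in the gene-rich pair.

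BMP and Id genes were mostly higher in the YFP-positive library. Of 12 tested genes of BMP signalling and the Id family, 9 were higher and 1 lower (median 3.29). That median was 1.53 both without a filter and with genes above 0 in both libraries, and 1.15 in the gene-rich pair. Besides Id1 and Id3, the receptors Acvr1 (81.2 FPKM) and Bmpr1a (26.0 FPKM) were listed at 0 in the YFP-negative library. The signal carrier Smad1 was at 59.5 and 10.5 FPKM, and Id2 lay within 2-fold at 487 and 468 FPKM. Bmp4, a ligand, was the lower one, at a listed 0 and 2.94 FPKM. The ligand Bmp2 was at 57.7 and 19.3 FPKM here, but at 1.15 and 29.8 FPKM in the gene-rich pair.

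Of 11 tested Notch genes, 6 were higher and 2 lower (median 1.66). That median was 0.71 without a filter and 0.38 with genes above 0 in both libraries, and it was 1.71 in the gene-rich pair. Notch1 and its ligand Jag1 were nearly equal, at 54.9 and 52.8 FPKM and at 31.1 and 32.1 FPKM. The target genes differed more: Hes1 was at 45.6 and 6.83 FPKM, Hey2 at 41.6 FPKM and a listed 0, and Hes5 at 49.6 FPKM and a listed 0. Nrarp, a feedback inhibitor of the pathway, went the other way at a listed 0 and 32.1 FPKM, and so did Rbpj, the DNA-binding partner of Notch, at 5.89 and 32.2 FPKM. In the gene-rich pair Hes5 was at 0.228 FPKM and a listed 0, so it stood out in 1 of the 4 libraries.

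The Hes5 promoter is shown because Hes5 is a direct target of Notch and RBPJ and was above 1 FPKM in the untreated YFP-positive library alone. The RBPJ motif GTGGGAA (reverse complement TTCCCAC) was searched on both strands of the same windows. It was found in 2097 of 32851 promoters (6.38%) and in 1 of 2 matched genes of the 4 looked for. The stretch lies at chr4:154960673-154960876 (GRCm38.p6, plus strand, RefSeq), with 2 matches in capitals that begin 226 and 83 bases before the start and do not overlap.
Hes5: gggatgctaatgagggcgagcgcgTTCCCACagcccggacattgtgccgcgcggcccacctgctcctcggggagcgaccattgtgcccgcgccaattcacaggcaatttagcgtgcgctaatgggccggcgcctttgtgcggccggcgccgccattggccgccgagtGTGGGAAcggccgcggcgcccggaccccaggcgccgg
The first match is on the minus strand and the second on the plus strand. A match describes the letters of the window and not a bound site.

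Of 12 tested Wnt and Hedgehog genes, 5 were higher and 6 lower, beside 39.7% and 37.6% over all genes. Their median of -0.48 was 0.19 without a filter, 0.60 with fragments over the library total in place of FPKM and 1.13 in the gene-rich pair. Axin2, a target and inhibitor of Wnt signalling, was at 23.4 FPKM and a listed 0, while the Wnt effector Lef1 was at a listed 0 and 49.9 FPKM. The ligand Wnt3 was at a listed 0 and 44.0 FPKM, and Ctnnb1, which encodes beta-catenin, lay within 2-fold at 187 and 174 FPKM.

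Genes of the cell cycle lay on both sides, also within single complexes. Of 10 tested mitosis genes, 7 were higher and 3 lower (median 3.05, and 0.93 without a filter), and 4 of them were past 2-fold in the opposite direction in the gene-rich pair. Ccnb1, the mitotic cyclin B1, was at 127 and 0.0611 FPKM, Spc25, a kinetochore protein, at 118 FPKM and a listed 0, and the kinesin Kif11 at 69.6 and 0.877 FPKM. Cdk1, the kinase that cyclin B1 activates, was instead listed at 0 in the YFP-positive library and at 15.2 FPKM in the other, and Ccnb2 was at a listed 0 and 2.19 FPKM. The partners of 1 kinase complex were therefore found in different libraries. Of 10 tested DNA replication genes, 5 were higher (39.7% over all genes) and 2 lower; the median of 0.95 was 0.22 both without a filter and with genes above 0 in both libraries. The licensing factor Cdt1 was at 46.5 FPKM and a listed 0, and the sliding clamp Pcna at 273 and 85.9 FPKM. In the gene-rich pair Pcna was lower in YFP-positive cells, at 56.2 and 146 FPKM.

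Extracellular matrix and adhesion genes were uniformly higher. All 11 tested members were at least 2-fold higher in the YFP-positive library, with a median of 4.10, and all 11 were higher in the gene-rich pair too. Sparc, a matrix protein that glia secrete, was at 268 and 21.8 FPKM. The brain chondroitin sulfate proteoglycans Ncan and Bcan were at 118 and 0.0940 FPKM and at 77.0 and 0.261 FPKM. Tnc, the matrix glycoprotein tenascin C of stem cell niches, was at 17.0 and 0.0190 FPKM, and the integrin chain Itgb1 at 79.6 and 15.8 FPKM.

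Stress genes were abundant in both libraries and divided in direction. Of 15 tested p53 targets, 5 were higher and 3 lower (median 0.35), against 39.7% and 37.6% over all genes. Cdkn1a, the cell cycle inhibitor p21, lay within 2-fold at 1014 and 1483 FPKM, and the ubiquitin ligase Mdm2 was lower at 139 and 321 FPKM. Of 14 genes of the integrated stress response, 5 were higher and 6 lower (median -0.88). Its transcription factor Atf4 was at 1084 and 529 FPKM, but its target Ddit3, which encodes CHOP, was at 446 and 1524 FPKM. Another target, the pseudokinase Trib3, was at a listed 0 and 162 FPKM, while Chac1, which degrades glutathione, was at 32.7 and 0.373 FPKM. Of 13 heat shock and chaperone genes, 3 were higher and 3 lower (median -0.0030). The inducible Hspa1a was at 18.2 and 325 FPKM, the small heat shock gene Cryab at 541 and 3179 FPKM and the constitutive Hspa8 at 3093 and 1425 FPKM. Cryab is also an oligodendrocyte gene, and Hspa1a and Hspa1b are near-identical copies, so the split of reads between those 2 is uncertain.

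Of 19 genes of the NRF2 response, glutathione and metal binding, 8 were higher and 2 lower (median 0.94). Over all genes the shares were 39.7% and 37.6%. Hmox1, the heme oxygenase, was at 6693 and 3031 FPKM. The glutathione transferases Gsta4 and Mgst1 were at 274 and 0.165 FPKM and at 223 and 0.336 FPKM, and the quinone reductase Nqo1 at 124 and 6.43 FPKM. The ferritin heavy chain Fth1 was lower, at 15214 and 45972 FPKM, while the light chain Ftl1 lay within 2-fold at 15694 and 17137 FPKM. These ferritin genes had the highest levels of the genes abundant in both libraries. Next among the 8 such genes came Rpl41, Actb, Rpl35, Rpl38, Eif1 and Rps18, each within 2-fold and at 3870 FPKM or more in both.

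Metabolic lists leaned in opposite directions. Of 16 tested genes of cholesterol synthesis, a pathway that myelin formation draws on, 9 were lower in the YFP-positive library and 4 higher (median -1.35). Hmgcs1 was at 160 and 613 FPKM and the isomerase Idi1 at 1.20 and 214 FPKM, whereas Fdps, which makes farnesyl diphosphate, was at 478 and 76.0 FPKM. Of 17 glycolysis and hypoxia genes, 9 were higher and 3 lower (median 1.21), among them Gapdh at 1298 and 561 FPKM and the glycolytic mutase Pgam1 at 295 and 48.6 FPKM. The glucose transporter Slc2a1 was lower at 3.58 and 50.9 FPKM, and Bnip3, a hypoxia target, at 0.177 and 38.4 FPKM. Lysosomal genes, abundant in microglia, had 11 of 20 lower and 1 higher (median -1.31), and in the gene-rich pair 12 lower and 0 higher. Ctsa, a lysosomal carboxypeptidase, was at 0.315 and 109 FPKM.

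Genes that encode subunits of the same complex were also described singly, and the cause of differences between subunits was not tested. The 28 cytosolic ribosomal genes were tight, with 5 higher and 0 lower and log2 ratios of -0.67 (Rplp1) to 1.85 (Rpl6). All were above 100 FPKM in both libraries. The 24 proteasome genes had 10 higher and 4 lower, while in the gene-rich pair 2 were higher and 0 lower. Over all genes of the pair described here, 39.7% were higher and 37.6% lower. Psmb6, a catalytic subunit, was at 889 and 41.1 FPKM, and Psma4, a subunit of the outer ring, at 135 and 494 FPKM. Of the 24 genes of mitochondrial complex I, 7 were higher and 7 lower, against 3 and 2 in the gene-rich pair. Ndufv1, which binds NADH, was at 69.5 and 0.280 FPKM (log2 ratio 5.78), and the accessory subunit Ndufb5 at 0.674 and 404 FPKM (-7.92). In the gene-rich pair these subunits were at 40.9 and 91.1 FPKM and at 101 and 119 FPKM. The medians of the lists were near 0 in both pairs, 0.06 and 0.35 for the proteasome and 0.19 and -0.05 for complex I. Single subunits of 1 complex thus lay past 2-fold in both directions around a median within 2-fold.

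**Figure D5:**
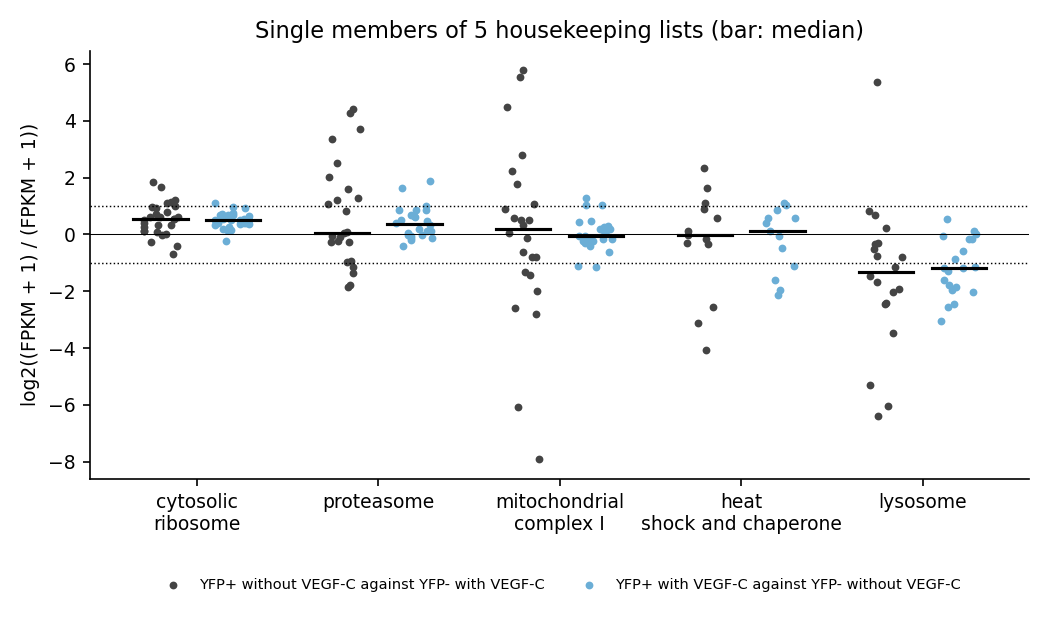
Points give the log2 ratio of FPKM + 1 (vertical) of each tested member of 5 housekeeping lists (horizontal), in dark for the pair described here and in light blue for the gene-rich pair; bars are medians and dotted lines mark 2-fold. Proteasome, complex I and lysosome genes reach farther from 0 in the dark columns (from -7.92 for Ndufb5 to 5.78 for Ndufv1), and ribosomal genes stay between -0.67 and 1.85.

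Reference genes, often used to scale expression, also split. Of 17, 5 were higher and 5 lower (median 0.58), against 39.7% and 37.6% over all genes. Actb was at 11327 and 6345 FPKM and Hprt at 166 and 148 FPKM, both within 2-fold. Hnrnpa1, an RNA-binding protein of every cell (chromosome 15 from 103240432 to 103246692, plus strand), reached 692 FPKM in YFP-positive cells and was listed at 0 in the other library. In the gene-rich pair Hnrnpa1 stood at 421 and 299 FPKM. What lies behind a listed 0 was not tested, and no fold is given against one.

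The protein-coding genes with the highest values opposite a listed 0 were taken from each library. Listed at 0 in the treated YFP-negative library were, after Hnrnpa1, Rangrf (242 FPKM in the YFP-positive library), the mitochondrial ribosome genes Mrpl46 (234 FPKM) and Mrpl22 (175 FPKM), Mob2 (198 FPKM), Coa3 (163 FPKM), Otud1 (157 FPKM) and Cdc26 (153 FPKM). Coa3, needed to assemble cytochrome oxidase, was at 89.2 and 87.2 FPKM in the gene-rich pair. Listed at 0 in the YFP-positive library were Smim11 (342 FPKM in the YFP-negative library), Chrac1 (247 FPKM), Dnajc15 (237 FPKM), Nme3 (232 FPKM), the mitochondrial ribosome gene Mrps23 (203 FPKM), the chemokine gene Pf4 (198 FPKM), Amn1 (191 FPKM) and Pex5l (164 FPKM). Of these 16 genes, 8 lay within 2-fold in the gene-rich pair: Hnrnpa1, Mrpl46, Mob2, Coa3, Smim11, Dnajc15, Nme3 and Mrps23. That is near the share over all 12194 genes of the gene-rich pair, of which 52.5% were past 2-fold.

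Genes that were abundant in the gene-rich pair were usually, though not always, found in both libraries here. Of 2424 genes with at least 20 FPKM in both gene-rich libraries, 2065 reached 1 FPKM in both libraries of the pair, 139 in the YFP-positive library alone and 171 in the YFP-negative library alone. The remaining 49 reached it in neither, and 11 of them were listed at 0 in both. Ddt, a relative of the cytokine MIF, was at 40.1 and 39.3 FPKM in the gene-rich pair and listed at 0 in both libraries here, and so were Gal, Ppil1, Mecr and Acyp2. In the other direction, 2131 of 2156 genes with at least 20 FPKM in both libraries of the pair reached 1 FPKM in both gene-rich libraries. Genes above 0 only in the pair were low on at least one side: Mip was at 44.6 and 2.32 FPKM, and Orm1, Col23a1, Rfx5 and Apoa2 at most 8.14 FPKM.

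Set against the gene-rich pair, the direction was kept for part of the genes. Of 8589 genes tested in both pairs, 1224 were at least 2-fold higher in YFP-positive cells in both, which is 36.3% of the 3376 higher here and 60.8% of the 2012 higher there. Another 1108 were lower in both, 34.8% of 3180 and 59.8% of 1852. Opposite calls were given to 433 genes higher here and lower there (12.8% of the higher ones). Another 477 genes were lower here and higher there (15% of the lower ones). Over all genes tested in each pair, 39.7% were higher and 37.6% lower here. In the gene-rich pair the shares over all genes were 26.8% higher and 25.8% lower. Across the 8589 genes, the log2 ratios of the pairs had a Pearson's r of 0.34 and a Spearman's rho of 0.32, as a description; genes are not independent replicates. Of 1741 genes higher by at least 8-fold here, 689 were at least 2-fold higher there, and of 1787 lower ones 637 were lower there. For a gene with opposite calls, the layout of the pairs makes the higher library of both the one without VEGF-C, or of both the one with it.

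Among the genes with opposite calls, the widest were picked after their values were seen. Higher in both untreated libraries were Gng13, a G protein gamma subunit, at 116 and 0 FPKM in the pair and at 0.0531 and 16.2 FPKM in the gene-rich pair, and S100a8, a calcium-binding protein of neutrophils, at 120 and 0 FPKM and at 0 and 14.8 FPKM. Mmaa, Dnd1, Cd300ld and Cast followed the same pattern. Higher in both treated libraries were Cldn10, at 112 FPKM in the YFP-negative and 39.9 FPKM in the YFP-positive treated library and listed at 0 in both untreated ones, and Chga, the granule protein chromogranin A, at 54.9 and 30.1 FPKM against at most 0.0553 FPKM. Fabp3, Abhd3, Gtf2h4 and Pih1d1 shared that pattern. Dusp4, Lef1 and Kdr of the lists above also did. With 1 library for each condition these values have no replicate, and library and treatment cannot be told apart.

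Sex-linked genes also differed between the libraries. Xist, transcribed from the inactive X chromosome of females, stood at 15.3 and 0.0763 FPKM in YFP-positive and YFP-negative cells of the pair, and at 7.01 and 0.00392 FPKM in the gene-rich pair. Eif2s3y of the Y chromosome stood at 0.527 and 192 FPKM, and at a listed 0 and 56.2 FPKM in the gene-rich pair. Kdm5d was at a listed 0 and 7.67 FPKM, Uty was listed at 0 in both libraries, and Ddx3y was at 18.7 and 6.50 FPKM. Xist and Eif2s3y thus had opposite directions that both pairs shared, while Ddx3y was higher in the YFP-positive library here and lower there. The sexes of the mice are not given in the labels used here, and the part of sex in the other differences was not tested.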

How the data were processed

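Per the labels' protocols, SMARTer Ultra Low libraries, which amplify full-length cDNA from little RNA, were sequenced as 75 bp read pairs. Per the submitters' processing notes, TopHat 2.0.9 (on Bowtie 2.1.0, and with SAMtools at version 0.1.18) placed the reads on mm10, and Cuffdiff from Cufflinks 2.1.1 gave expression values; which gene annotation was used is not stated in these sources. The mapping was unstranded, per the labels' protocols, so overlapping and antisense genes cannot be told apart. The authors deposited 1 table of FPKM and 1 table of normalized counts, a scaled signal, for the 4 libraries. Of 23361 genes in each table, 27 had symbols turned into calendar dates (0.251% to 0.317% of the deposited normalized counts) and were left out.

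In each library, 99.0% to 99.6% of the smaller normalized counts (under 2000 steps) were whole multiples of a common step, to a tolerance of 0.05 steps. The value over its step is the implied number of fragments, on which 95% exact Poisson intervals and limits of 3 fragments rest; both cover counting error only, since amplified fragments are not independent molecules. FPKM carries the same ratios between libraries, with a median coefficient of variation of 0.230% of the normalized count per FPKM.

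Genes with at least 1 FPKM in either library were compared as log2((FPKM + 1) / (FPKM + 1)) and called at 2-fold, in Python 3.11.15 with pandas 2.3.3, NumPy 2.4.6, SciPy 1.17.1 and matplotlib 3.10.9. The counting script was tested on simulated data. GENCODE M21 (GRCm38) matched 21699 symbols (93.0%) and gave positions and protein-coding status. Promoters came from RefSeq (GRCm38.p6).

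Named genes were, per direction, the 10 protein-coding genes with the widest ratio above 0 in both libraries at a mean of at least 20 FPKM. Added were the 8 highest per direction opposite a listed 0, the 8 most abundant in both, and 5 found in each pair alone. Of each of the 39 lists, the most abundant and most extreme members and all VEGF and sex-linked genes were taken; further list members are named as examples. Members and lists were chosen with earlier results of these data known. Of 613 listed genes, 611 were found under their symbol. Alternatives were another pseudocount, other filters on low values, other scalings and a 4-fold call. Some genes that enter counts and list medians are not reported here by name.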

Additional observations from a re-analysis of the deposited data

Results flagged for a closer look

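Of 431 distinct list members reported here and tested in both pairs, 26 were at least 2-fold apart in opposite directions in the pair described here and in the gene-rich pair, which is 6.03% of them. Over all 8589 genes tested in both pairs, 910 (10.6%) were so. With 1 library per condition, these differences between pairs were not tested. The values are log2 ratios of YFP-positive over YFP-negative cells, first in the pair described here and then in the gene-rich pair.

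Higher here and lower in the gene-rich pair were 14 genes. Among cell type and blood genes these were the oligodendrocyte lineage factor Olig2 (1.89 and -4.14), the heme synthesis gene Alas2 (1.38 and -1.68) and S100a8 of neutrophils (6.92 and -3.99). Signalling gave the Notch coactivator Maml1 (1.66 and -1.10) and the ligand Bmp2 (1.53 and -3.84). The cell cycle gave Pcna (1.66 and -1.36) and Kif11 (5.23 and -1.69). Stress genes were the p53 target Bbc3 (2.82 and -2.14), Chac1 (4.62 and -1.05) and the cochaperone Dnajb1 (2.35 and -1.10). The others were Ndufv1 (5.78 and -1.14), the synaptic genes Vamp2 (2.13 and -1.55) and Syn2 (3.72 and -1.61) and the Y-linked Ddx3y (1.39 and -4.45).

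Lower here and higher in the gene-rich pair were 12 genes. Vessel and glial genes were Cldn10 (-6.82 and 5.35), Kdr (-4.59 and 1.02), Slco1c1 (-2.97 and 2.48) and Vegfb (-1.63 and 1.30). Signalling and early response genes were the phosphatases Dusp4 (-6.12 and 2.18) and Dusp1 (-2.79 and 2.06), Rbpj (-2.27 and 2.34) and Lef1 (-5.67 and 3.88). Mitotic genes were Ccnb2 (-1.67 and 2.21), Ccna2 (-1.02 and 2.01) and Cdk1 (-4.02 and 1.97). The granule protein gene Chga (-5.80 and 4.88) was the remaining one. That the treated library was the higher one in both pairs for these 12 genes follows from how they were grouped.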

How the results depend on the processing

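No paired analysis was possible because each group has 1 library, and leaving out a library leaves no comparison. The 3640 higher and 3445 lower genes became 1550 and 1427 at a mean of at least 20 FPKM, where fewer genes are tested. The 2332 genes with the same direction in both pairs became 1278 with a pseudocount of 5, 537 at a mean of at least 20 FPKM, 1509 with genes above 0 in both libraries and 869 with a 4-fold call, and the number of lists with a median of at least 1 went from 15 to 9 without a filter. Of the list medians under the alternatives, 250 stayed close to the value given, 95 moved and 5 of at least 1 in size changed sign. With medians smaller than 1 in size included, 17 changed sign. The median of the interferon-stimulated list changed from -1.26 to 1.81 (at least 5 FPKM) and 2.16 (mean of at least 20 FPKM). The median of the mural list changed from 1.60 to -0.10 without a filter and -1.05 with fragments over the library total in place of FPKM, and that of the blood list from 1.38 to -1.42 with genes above 0 in both libraries. The cause was not tested, and each of these lists rests on few genes. Scaling by that total moved the median of all genes from 0.08 to -0.08. Higher genes made up 49.2% to 52.1% of those called under every alternative. The 8390506 to 8561946 fragments per library limit the precision of low genes.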
